A study of Mus musculus with 4 samples.

Results

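Classical monocytes of mouse lung were taken as the barcodes that passed a gate on raw UMI counts, and 413 of the 34440 barcodes kept in 4 single-cell libraries did so. The gate asked for at least 4 UMIs in sum, over at least 2 detected genes, of Ly6c2, Ccr2, F13a1, Vcan and Ms4a4c, and for at least 3 UMIs of Lyz2. It allowed at most 1 UMI of Nos2 and Arg1, fewer than 6 UMIs of the C1q genes, at most 1 UMI of Treml4 and Ace, and none of Cd3e, Cd79a, Ncr1, Siglech, Marco and Cdh5. The members were thus chosen by the measured levels of these genes, which are given below as a description only.

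The study measured single-cell gene expression in lungs of male wild-type C57BL/6 mice aged 6 to 7 weeks, with 1 library in each of 4 groups. All groups were examined 48 hours after an intratracheal injection. The LPS+RT group received 200 µg of LPS (endotoxin of E. coli) and, on the next day, 1 Gy of X-rays to the thorax. The LPS group received LPS without irradiation, the PBS+RT group received saline and the same irradiation, and the PBS group received saline alone. Irradiated lungs were thus taken 24 hours after irradiation. All lungs were digested and depleted of dense cells on a Ficoll gradient, which removes part of the granulocytes, so shares are shares of the recovered cells. How many mice went into a library is not given in the sources used here. Each group being a single library, differences between groups could not be set against the spread of replicates and were not tested. The intervals given (exact, 95%) reflect counting error alone.

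Classical monocytes are made in the bone marrow and leave it through the chemokine receptor Ccr2. They carry the surface protein Ly6C, encoded in part by Ly6c2, enter inflamed lung early, and become macrophages or antigen-presenting cells there. Endotoxin acts on them through Tlr4 and NF-kB, and interferon-gamma acts through Irf1, among other factors, to turn on the guanylate-binding proteins and the chemokines Cxcl9 and Cxcl10.

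The 4 libraries held between 65995600 and 80013887 UMIs, and 6345 to 9917 barcodes each were kept. The members held 1491294 UMIs in LPS+RT, 3864396 in LPS, 737321 in PBS+RT and 994311 in PBS. Their median depth was 13956 UMIs in LPS+RT, 16132 in LPS, 16132.5 in PBS+RT and 14704.5 in PBS, whereas all kept barcodes had medians from 4375 to 8674. The members' depths thus lay close together although the libraries' depths did not. Levels are given in CPM, the usual scaling of a gene's UMIs to the UMIs of all genes, both summed over the members of a library. A gene was measured in a comparison when the higher library had at least 50 CPM and 30 UMIs of it. A gene was called when its levels differed at least 2-fold, and a gene without UMIs was set to 3 UMIs, which makes its fold a lower bound.

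Genes that interferon-gamma induces differed between LPS+RT and LPS, as described below, and stretches of promoter show the letters that several of them share. Shown are the 250 bases before the start of 4 of these genes and of Cxcl3, a neutrophil chemokine gene of the NF-kB list. They were chosen after their values were seen, because a motif match was found in each. Capitals mark matches to the GAS motif TTCNNNGAA, known from interferon-gamma target genes, to the ISRE motif (TTTC, any 2 bases and TTTC again), bound by interferon regulatory factors, or, in Cxcl3, to the NF-kB motif (GGG, any 2 bases and TTTCC), each searched on both strands. All sequences are from RefSeq on GRCm38.p6, written in the direction of the gene.
Irf1, chr11:53769764-53770013, plus strand: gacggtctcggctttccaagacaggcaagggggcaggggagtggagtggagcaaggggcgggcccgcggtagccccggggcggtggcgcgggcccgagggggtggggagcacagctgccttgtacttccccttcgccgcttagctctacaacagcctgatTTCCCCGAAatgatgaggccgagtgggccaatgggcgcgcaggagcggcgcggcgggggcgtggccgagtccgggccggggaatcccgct
Socs1, chr16:10785537-10785786, minus strand: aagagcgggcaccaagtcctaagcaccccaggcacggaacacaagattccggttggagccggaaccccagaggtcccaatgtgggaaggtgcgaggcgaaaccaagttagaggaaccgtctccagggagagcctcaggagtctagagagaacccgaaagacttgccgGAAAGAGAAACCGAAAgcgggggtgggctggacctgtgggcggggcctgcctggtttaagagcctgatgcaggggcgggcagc
Gbp7, chr3:142530086-142530335, plus strand: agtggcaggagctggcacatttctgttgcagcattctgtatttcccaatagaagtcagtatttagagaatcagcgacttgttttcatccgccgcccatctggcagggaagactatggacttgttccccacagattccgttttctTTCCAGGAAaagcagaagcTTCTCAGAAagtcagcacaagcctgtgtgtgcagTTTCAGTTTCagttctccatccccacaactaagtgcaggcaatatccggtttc
Cxcl10, chr5:92348890-92349139, minus strand: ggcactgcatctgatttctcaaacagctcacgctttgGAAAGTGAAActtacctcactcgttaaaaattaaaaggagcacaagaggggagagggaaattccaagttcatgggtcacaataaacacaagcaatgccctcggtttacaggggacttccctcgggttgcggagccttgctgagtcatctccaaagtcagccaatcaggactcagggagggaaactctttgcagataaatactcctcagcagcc
Cxcl3, chr5:90785851-90786100, plus strand: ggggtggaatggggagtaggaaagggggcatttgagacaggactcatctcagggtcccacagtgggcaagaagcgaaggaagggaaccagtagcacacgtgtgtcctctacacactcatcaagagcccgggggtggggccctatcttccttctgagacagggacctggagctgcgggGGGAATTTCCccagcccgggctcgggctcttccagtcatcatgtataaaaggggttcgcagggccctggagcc

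Of the 19 interferon-gamma genes listed, 14 had a promoter in the RefSeq table. An ISRE match was found in 9 of them (64.3%), against 3.04% of 27025 promoters, and a GAS match in 5 (35.7%), against 7.18% of all promoters. The NF-kB motif was found in 4 of 13 promoters (30.8%) of the NF-kB cytokine list, against 1.40% of all promoters. In Socs1 the 2 ISRE matches overlap by 4 bases. A match is a description of the letters, and binding was not measured.

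The 5 markers of classical monocytes chose the cells and so cannot check the label. Of monocyte genes outside the gate, Csf1r was detected in 82 members of LPS+RT, 185 of LPS, 41 of PBS+RT and 54 of PBS, and Chil3 in 86 of LPS+RT, 154 of LPS, 32 of PBS+RT and 50 of PBS. The summed level of the 5 markers was 2487 CPM in LPS+RT, 2355 in LPS, 3736 in PBS+RT and 3412 in PBS. Both Ly6c2 and Ccr2 were found in 52 of 94 members (55.3%) of LPS+RT, 129 of 213 (60.6%) of LPS, 29 of 42 (69.0%) of PBS+RT and 46 of 64 (71.9%) of PBS. Ccr2 was not detected in 21 members of LPS+RT and 64 of LPS, against 0 of PBS+RT and 5 of PBS, and a member without Ccr2 could pass only through the other markers. Ly6c2, which shares much of its sequence with its neighbour Ly6c1, had 644 CPM in LPS+RT, 839 in LPS, 808 in PBS+RT and 1160 in PBS. Ccr2 had 627 CPM in LPS+RT, 442 in LPS, 831 in PBS+RT and 728 in PBS. In single cells the median of Ccr2 was 661 CPM in LPS+RT, 379 in LPS, 814 in PBS+RT and 773 in PBS. The ranges of all groups overlapped. Within cluster 1 of the members, described below, Ccr2 instead had 1244 CPM in LPS and 910 in PBS. Within cluster 3 it had 601 CPM in LPS and 403 in PBS. Genes limited by the gate were low by construction, and Nos2 and Arg1 together had 2.68 CPM in LPS+RT, 4.92 in LPS and 0 in both saline groups.

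**Figure D1:**
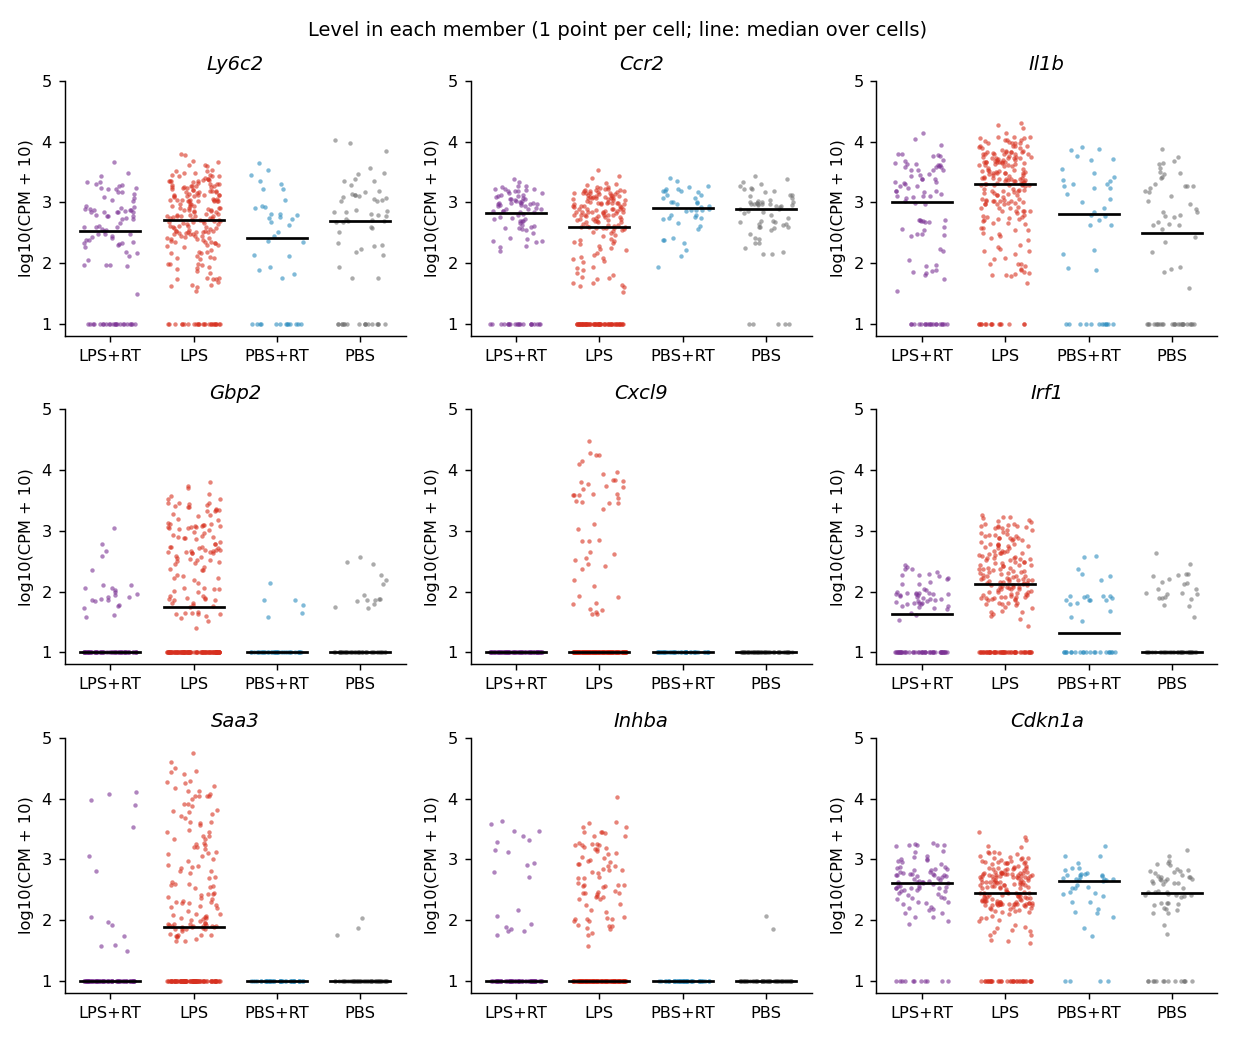
Level of 9 genes in each of the 413 members, as log10(CPM + 10) on the vertical axes, by library on the horizontal axes; each point is 1 cell and each line the median over cells. Ly6c2 and Ccr2 overlap between all libraries, Cxcl9 was detected in 50 members of LPS and in no member of another library, and Saa3 and Inhba were high in a part of the LPS+RT and LPS members.

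UMIs of markers of other cells were common among members: in each library at least 78.1% of the members held one of a neutrophil marker, and 29.1 to 59.5% one of a dendritic marker. At least 2 UMIs in sum of the granulocyte genes Csf3r, Retnlg and Cxcr2 were held by 28 members of LPS+RT, 92 of LPS, 20 of PBS+RT and 24 of PBS, but Csf3r is also made by monocytes. Retnlg and Cxcr2, which define neutrophils better, reached that sum in 0 members of LPS+RT, 8 of LPS, 1 of PBS+RT and 2 of PBS. The 7 neutrophil markers summed to 302 CPM in LPS+RT, 2289 in LPS, 423 in PBS+RT and 6491 in PBS. In PBS a single member held 97.4% of the S100a8 UMIs, and Camp, Ltf and Mpo, genes of neutrophil granules, were each detected in 1 member. The dendritic markers summed to 185 CPM in LPS+RT, 114 in LPS, 395 in PBS+RT and 318 in PBS, with Xcr1 at 0 in both irradiated libraries. The alveolar type 2 markers Sftpc, Sftpb and Sftpa1 summed to 3264 CPM in LPS+RT, 36.5 in LPS, 14.9 in PBS+RT and 79.5 in PBS, and 1 member of LPS+RT held 98.4% of the Sftpc UMIs there. The fibroblast markers summed to 213 CPM in LPS+RT, 14.0 in LPS, 5.43 in PBS+RT and 460 in PBS. The part of these markers in the ratios below was not tested. Cd3e, Cd79a, Ncr1 and Marco were at 0 because the gate required it.

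The gate removed different cells in different libraries. Of the barcodes that passed the marker and Lyz2 steps, 403 were from LPS+RT, 834 from LPS, 106 from PBS+RT and 175 from PBS. The limit on Nos2 and Arg1 then removed 43 in LPS+RT and 326 in LPS, and 0 in each saline library. The limit on C1q genes, which mark interstitial macrophages, removed 138 in LPS+RT, 121 in LPS, 5 in PBS+RT and 12 in PBS. The last step removed 79, 68, 21 and 37 barcodes in the same order, and Marco or Cdh5 was the gene found most often there in LPS+RT and the saline libraries. The number of members thus depends on where those limits were put. With a marker sum of 3, just outside the gate, there were 2 further barcodes in LPS+RT, 14 in LPS, 1 in PBS+RT and 1 in PBS, and with a sum of 4, just inside it, there were 2, 8, 2 and 2 members.

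Members made up 0.948% (0.767 to 1.16%) of kept barcodes in LPS+RT, 2.33% (2.03 to 2.66%) in LPS, 0.662% (0.477 to 0.894%) in PBS+RT and 0.708% (0.546 to 0.903%) in PBS. Their share was thus highest in LPS, and the other 3 libraries lay close together. On the log2 scale the share was 1.72 higher in LPS than in PBS, 0.52 higher in LPS+RT than in PBS+RT, and lower by 1.30 in LPS+RT than in LPS. Among barcodes with a UMI of Ptprc, the gene of the leukocyte protein CD45, members were 2.20% in LPS+RT, 3.54% in LPS, 1.72% in PBS+RT and 2.06% in PBS. The contrast between LPS+RT and LPS was then -0.69 on the log2 scale. Without the limit on Nos2 and Arg1 it was -1.87. Members of clusters 1 and 2, described below, were 0.575% of kept barcodes in LPS+RT, 0.985% in LPS, 0.441% in PBS+RT and 0.575% in PBS. LPS was thus the highest there too, but the libraries lay closer together. The number of cells per lung cannot be told from these shares.

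**Figure D2:**
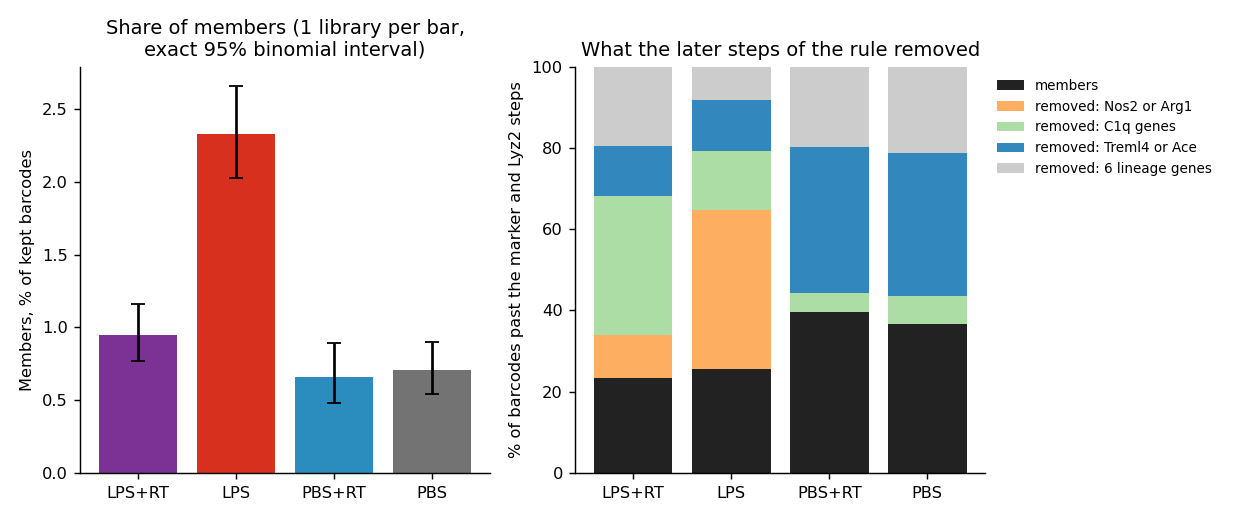
Left, members as a percentage of kept barcodes in each library, with exact 95% binomial intervals. Right, the fate of the barcodes that passed the marker and Lyz2 steps in each library, as percentages of those barcodes; the Nos2 and Arg1 limit removed 43 of 403 barcodes in LPS+RT, 326 of 834 in LPS and none in the saline libraries.

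The comparison of LPS with PBS asks what endotoxin did to these cells at 48 hours. Most measured genes of NF-kB cytokines, of the interferon-gamma response, of NRF2 and heme stress, and of secreted acute-phase proteins were higher in LPS members, and most measured MHC class II genes were lower. Part of this lay in cluster 4 of the members, described below, which was absent from PBS and had hardly any Ccr2: in LPS it held 11471 of the 12143 UMIs of Saa3, 1847 of the 2022 of Inhba, 2316 of the 2389 of Slc7a2 and 1068 of the 1224 of Hmox1. Within cluster 1, which both libraries share, 8 of 10 measured interferon-gamma genes and 8 of 9 NF-kB cytokine genes were higher in LPS than in PBS. There 2 of 9 NRF2 genes were higher, with a median of 0.17. Of 13 macrophage differentiation genes in cluster 1, 0 were higher and 2 lower, with a median of -0.04. MHC class II genes ran the other way in cluster 1 than over all members. There 4 of 7 measured were higher and 0 lower, with a median of 1.19. Of 3808 genes measured, 729 (19.1%) were called, and 508 were at least 2-fold higher (13.3%) and 221 at least 2-fold lower (5.8%) in LPS than in PBS. The median log2 ratio of all measured genes was 0.11, and with median-of-ratios scaling 61.3% of the calls were higher in place of 69.7%.

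Saa3, a secreted acute-phase apolipoprotein, had 639 CPM in LPS+RT, 3142 in LPS, 0 in PBS+RT and 3.02 in PBS. Inhba, the subunit of activin A, had 414 CPM in LPS+RT, 523 in LPS, 0 in PBS+RT and 3.02 in PBS. Both were thus close to absent in saline lungs and carried by a part of the members, since 14 of 94 members of LPS+RT and 125 of 213 of LPS held a Saa3 UMI. After each cell was thinned to 3000 UMIs, 8.51% of LPS+RT members and 2.83% of LPS+RT B cells, which are not known as a source of Saa3, held one, and 36.7% of members and 17.7% of B cells in LPS. Median depths before thinning were 13956 UMIs in LPS+RT members and 5627 in LPS+RT B cells, and 16132 and 5455 UMIs in LPS. The Saa3 UMIs in B cells may be background, and part of those in members would then be background too. This was not tested. Inhba was found after thinning in 14.9% of members and 2.83% of B cells in LPS+RT, and in 27.1% and 1.26% in LPS.

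Of the 20 NF-kB cytokine and chemokine genes listed, 14 were measured in LPS against PBS, 13 were at least 2-fold higher and none lower, with a median log2 ratio of 3.46. The neutrophil chemokine gene Cxcl3 had 886 CPM in LPS and 1.01 CPM, from 1 UMI, in PBS, a log2 ratio of 9.78 (7.30 to 15.09). The interleukin gene Il1a had 330 CPM in LPS and 1.01 CPM in PBS. Il1rn, the antagonist of the interleukin-1 receptor, had 313 CPM in LPS members and 11.1 CPM in PBS members. Il1b, already high in saline lungs, was 3085 CPM in LPS and 928 CPM in PBS, 1.73 (1.64 to 1.83) higher on the log2 scale. The chemokine genes Ccl3, at 695 CPM in LPS and 45.3 in PBS, and Ccl5, at 449 CPM in LPS and 11.1 in PBS, had the same direction. Tnf differed less, at 66.5 CPM in LPS, against 35.2 CPM in PBS, and was not called.

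Of the 19 interferon-gamma response genes, 16 were measured, 14 were at least 2-fold higher and none lower in LPS than in PBS, with a median log2 ratio of 2.52. Their levels in all 4 libraries are given with the irradiated lungs below. Of the 13 acute-phase and secreted genes, 6 were measured, 4 were higher and none lower, with a median of 1.31. Saa3 and Inhba, described above, are 2 of these 13.

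Of the 16 NF-kB factors and feedback genes, all were measured, 8 were higher and none lower, with a median of 1.00. The mitochondrial superoxide dismutase gene Sod2 had 923 CPM in LPS and 106 CPM in PBS. Nfkb1 had 971 CPM in LPS and 305 in PBS, and Relb 106 CPM in LPS and 27.2 in PBS. Of 16 endotoxin sensing genes, 9 were measured, 3 were higher and 1 lower, the median being 0.30. Tlr4, the endotoxin receptor, had 83.6 CPM in LPS, against 13.1 CPM in PBS, and Irak3, which limits its signalling, 203 CPM in LPS and 49.3 CPM in PBS.

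Among the 14 NRF2 and heme stress genes 12 were measured and 9 were higher, with a median of 1.48. Fth1, the ferritin heavy chain, was among the most abundant of all transcripts: 16418 CPM in LPS+RT, 31966 in LPS, 2456 in PBS+RT and 3804 in PBS. Hmox1, which degrades heme, had 317 CPM in LPS, against 47.3 CPM in PBS, and the cystine carrier gene Slc7a11 888 CPM in LPS, against 116 CPM in PBS. Of 8 arginine and itaconate genes 7 were measured and 5 were higher, with a median of 1.78. The arginine carrier gene Slc7a2 had 618 CPM in LPS and 3.02 in PBS, and Acod1, which makes itaconate, 560 CPM in LPS and 18.1 CPM in PBS. Of 21 glycolysis and hypoxia genes 17 were measured, 8 were higher and none lower, with 450 CPM of Ldha in LPS, against 158 CPM in PBS, and 335 CPM of Hif1a in LPS, against 111 CPM in PBS.

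Of 23 macrophage differentiation genes 17 were measured, 8 were higher and none lower, with a median of 0.89. Gpnmb, a glycoprotein of macrophage lysosomes, had 193 CPM in LPS and 8.05 CPM in PBS. The membrane protease gene Mmp14 had 308 CPM in LPS, against 13.1 CPM in PBS, and the lysosomal protease gene Ctsd 1337 CPM in LPS and 147 CPM in PBS. The factor B gene of the complement system, Cfb, had 632 CPM in LPS and 15.1 in PBS. F7, the gene of coagulation factor VII, had 101 CPM in LPS and 1.01 CPM, from 1 UMI, in PBS. Genes of the lectins Mincle and Dectin-3, Clec4e and Clec4d, were also higher, at 779 and 407 CPM in LPS against 112 and 72.4 CPM in PBS.

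Of 20 genes of monocyte identity, 19 were measured in LPS against PBS, 2 were higher and 2 lower, with a median of -0.40. That count is near the 19.1% called among all measured genes. Csf1r, the receptor of the growth factor that monocytes depend on, had 304 CPM in LPS+RT, 331 in LPS, 336 in PBS+RT and 284 in PBS. Chil3, a secreted lectin of marrow-derived monocytes, had 1219, 1284, 1660 and 1554 CPM in the same order. The groups thus hardly differed in either gene. The membrane proteins Ifitm3 and Ifitm6 were lower in LPS, with 1240 CPM of Ifitm3 in LPS and 3391 CPM in PBS. Cd300lf, an inhibitory receptor, was higher, with 151 CPM in LPS and 19.1 CPM in PBS. Cx3cr1 and Nr4a1, which mark the passage to nonclassical monocytes, were lower in LPS by 1.13 and 1.01 on the log2 scale.

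Of 10 MHC class II genes listed, 8 were measured in LPS against PBS, 5 were lower and 2 higher, with a median log2 ratio of -1.09. With cells gated after thinning to 3000 UMIs the median was 2.09, and the cause of the turn was not tested. Cd74, the invariant chain, had 3995 CPM in LPS+RT, 2613 in LPS, 3924 in PBS+RT and 6266 in PBS, and H2-Aa 1771, 970, 1678 and 2371 CPM. Within clusters 1 and 2 of the members, described next, Cd74 was instead 0.37 higher in LPS than in PBS on the log2 scale. Within cluster 3, where these genes are highest, Cd74 had 9618 CPM in LPS and 24188 CPM in PBS. Cd86, a costimulatory ligand for T cells, was higher, with 564 CPM in LPS and 265 CPM in PBS.

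Clustering gave 5 groups of cells within the members, and the libraries were not mixed evenly among them. Cluster 1, of 118 members, was led by Sftpc, Mgp, Gsn, Sparc and Gm9733, of which 1 LPS+RT cell carried most Sftpc, and held 35 members of LPS+RT, 30 of LPS, 6 of PBS+RT and 47 of PBS. Cluster 2, of 109 members, was led by S100a9, S100a8, Hdc, Pglyrp1 and Gm13986, the first of them neutrophil markers, and held 22 of LPS+RT, 60 of LPS, 22 of PBS+RT and 5 of PBS. Cluster 3, of 79 members, was led by Cd209a, Klrd1, Ust, H2-Eb1 and Cd7 and held 21 of LPS+RT, 32 of LPS, 14 of PBS+RT and 12 of PBS. Cd209a is a lectin gene of monocyte-derived dendritic cells, and Ly6c2 was low there, at 135 CPM in LPS+RT, 124 in LPS, 480 in PBS+RT and 4.28 in PBS. Of the dendritic markers, Flt3 was detected in 60.8% of the cells of cluster 3, Zbtb46 in 36.7%, Clec9a in 12.7% and Xcr1 in 3.80%. Ccr2 was detected in 93.7% of them, F13a1 in 44.3% and Vcan in 11.4%. Whether they are dendritic cells of another origin was not tested. Cluster 4, of 78 members, was led by Slc7a2, Saa3, Cxcl3, Inhba and Gpnmb and held 16 members of LPS+RT and 62 of LPS. Its cells had Ly6c2, at 661 CPM in LPS+RT and 902 in LPS, but hardly any Ccr2, at 0 CPM in LPS+RT and 20.7 in LPS. Cluster 5, of 29 members of LPS alone, was led by Cxcl9, Cxcl10, Ifit2, Gbp4 and Rsad2. The clusters keep their numbers, their leading genes are no result, and a cluster of 1 library cannot be told apart from that library.

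Cluster 4 can be set beside the gated macrophages with Nos2 or Arg1, of which LPS+RT had 15 and LPS 235. In LPS, cluster 4 had 6776 CPM of Saa3, 1091 of Inhba and 20.7 of Ccr2, against 9936 CPM of Saa3, 1136 of Inhba and 64.8 of Ccr2 in these macrophages. The members of cluster 4 were the deepest, with a median of 27026 UMIs. In clusters 1 and 2 together, the log2 ratio of LPS over PBS was -0.79 for Gpnmb and -0.22 for Mmp14. Both genes were thus higher in LPS only with the other clusters counted.

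Against PBS+RT, the LPS+RT library asks the same question in irradiated lungs, with no library in common with the comparison above. Saa3, Inhba, Cxcl3 and Cfb were again far higher. Of the 19 interferon-gamma genes only 5 were measured, and 2 of these were called higher. Of 3706 genes measured, 429 (11.6%) were called, and 167 were at least 2-fold higher (4.51%) and 262 at least 2-fold lower (7.07%) in LPS+RT than in PBS+RT. The median log2 ratio was -0.16, and with median-of-ratios scaling the calls were 232 higher and 156 lower. The number of genes called lower depends on that shift. Of the 167 genes higher here, 100 (59.9%) were also higher in LPS than in PBS, which is 19.7% of those 508.

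Saa3 was at least 7.30 and Inhba at least 6.67 higher on the log2 scale in LPS+RT than in PBS+RT, both being at 0 in PBS+RT. Cxcl3 had 400 CPM in LPS+RT and 4.07 CPM in PBS+RT, of which 50.8% of the LPS+RT UMIs came from 1 cell. Cfb had 351 CPM in LPS+RT and 8.14 CPM in PBS+RT, and Gpnmb 245 CPM in LPS+RT and 4.07 CPM in PBS+RT. Fth1 was 2.74 (2.67 to 2.81) higher. Of the 20 NF-kB cytokine genes, 13 were measured and 8 were higher, with a median of 1.47. Il1b was within 2-fold, at 1906 CPM in LPS+RT and 1622 CPM in PBS+RT, as was Ptgs2, at 225 CPM in both. In LPS+RT, cluster 4 held 950 of the 953 UMIs of Saa3, 612 of the 617 of Inhba and 170 of the 173 of Acod1.

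**Figure D3:**
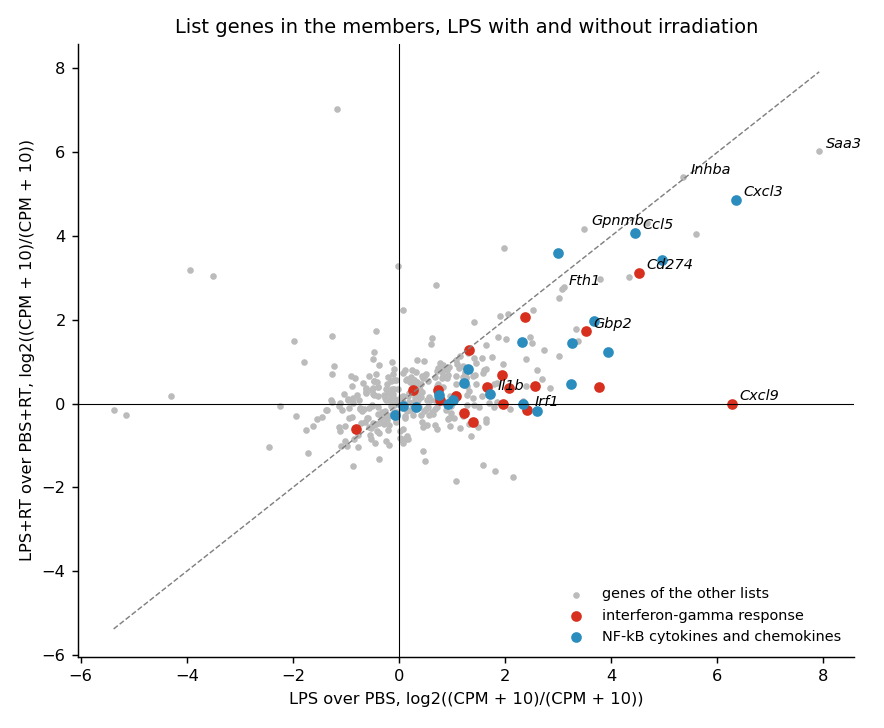
Log2 ratio of CPM, with 10 CPM added to each value, of the genes of all lists in LPS over PBS (horizontal axis) and in LPS+RT over PBS+RT (vertical axis); the dashed line marks equal ratios. Inhba and Fth1 lie near the line, while Cxcl9 and Irf1 lie near 0 on the vertical axis.

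The comparison of LPS+RT with LPS asks what irradiation did in the inflamed lung. Interferon-gamma genes were lower in LPS+RT, and so, to a lesser degree and not within cluster 4, were NF-kB cytokines. Apoe and Cd209a were higher. Of 3628 genes measured, 251 (6.92%) were called, and 66 were at least 2-fold higher (1.82%) and 185 at least 2-fold lower (5.1%) in LPS+RT than in LPS. The median log2 ratio was -0.12, and with median-of-ratios scaling the calls were 86 higher and 142 lower.

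Of the 19 interferon-gamma genes, 16 were measured, 14 were at least 2-fold lower and none higher in LPS+RT than in LPS, with a median log2 ratio of -2.07. The same number, 14, had been higher in LPS than in PBS, and 13 genes were in both counts. Both comparisons share the LPS library, so this overlap is no independent finding. In LPS+RT against PBS+RT only 5 of the 19 were measured, of which 2 were higher.

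Cxcl9, which draws activated T cells, had 0 UMIs in LPS+RT, 2976 UMIs (770 CPM) in LPS and 0 in both saline libraries. It was therefore lower by at least 8.58 on the log2 scale in LPS+RT than in LPS. In LPS, 50 of 213 members held it, and after thinning 18.6% of members and 1.26% of B cells did, while 0 of 94 thinned members of LPS+RT did, which allows up to 3.85% of such thinned cells with a UMI and sets no limit on cells that express the gene. Gbp2, a guanylate-binding protein, had 54.3 CPM in LPS+RT, 441 in LPS, 9.49 in PBS+RT and 29.2 in PBS, and was lower by 3.02 (2.70 to 3.36) in LPS+RT than in LPS. Gbp5 had 6.71, 195, 2.71 and 5.03 CPM in the same order. The LPS library alone was high in these 3 genes. Cluster 5, of 29 LPS members, held 2392 of the 2976 UMIs of Cxcl9. It had 2247 CPM of Gbp2 and 1162 CPM of Gbp5.

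Irf1, the gene of a transcription factor of the pathway, was also highest in LPS. Irf1, on chromosome 11 at 53770014 to 53778374 of mm10, had 51.6 CPM in LPS+RT, 238 in LPS, 58.3 in PBS+RT and 36.2 in PBS. It was thus within the range of the saline libraries in LPS+RT. Its log2 ratio was -2.20 (-2.56 to -1.87) in LPS+RT over LPS. Socs1, the feedback inhibitor of this pathway, had 6.71 CPM in LPS+RT and 50.2 CPM in LPS. Gbp7 had 38.2 CPM in LPS+RT and 117 CPM in LPS.

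Cd274, the gene of the checkpoint ligand PD-L1, had 112 CPM in LPS+RT, 360 in LPS, 4.07 in PBS+RT and 6.03 in PBS. It was lower by 1.68 in LPS+RT than in LPS, and still 4.78 (3.21 to 7.07) higher than in PBS+RT. Cxcl10 had 27.5 CPM in LPS+RT, 706 in LPS, 5.43 in PBS+RT and 278 in PBS, but in PBS 64.5% of its UMIs were in 1 of 8 cells that held any. Its level in PBS therefore rests on few cells.

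The interferon-gamma genes were also lower within clusters that both libraries share. In cluster 1, 9 of 10 measured genes of the list were lower in LPS+RT than in LPS and none higher, with a median of -2.06. In cluster 2, 10 of 11 were lower, with a median of -3.26, and in cluster 3, 11 of 13, with a median of -2.99. Gbp2 had 26.6 CPM in LPS+RT and 318 in LPS in cluster 1, 12.5 and 283 in cluster 2, and 6.41 and 188 in cluster 3. In cluster 4 the libraries were alike, at 167 CPM in LPS+RT and 174 in LPS, whereas Irf1 had 45.8 CPM in LPS+RT and 89.8 in LPS there. In cluster 4, 3 of 9 measured genes of the list were lower, with a median of -0.89. Each library had 16 to 62 cells in a cluster.

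**Figure D4:**
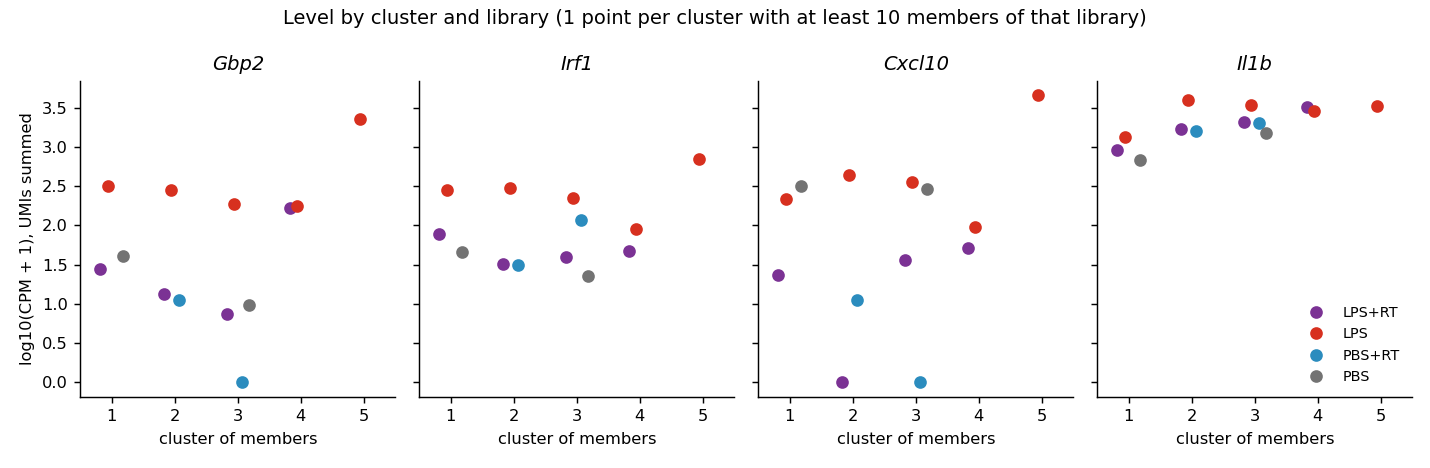
Level of Gbp2, Irf1, Cxcl10 and Il1b, as log10(CPM + 1) of UMIs summed per cluster and library, against the 5 clusters of members; clusters with fewer than 10 members of a library are not drawn. Gbp2 and Irf1 lie lower in LPS+RT than in LPS in clusters 1 to 3, and Gbp2 is alike in cluster 4.

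Other gated classes differed in the same direction. Gbp2 had 18.2 CPM in LPS+RT and 250 in LPS in gated macrophages with C1q, 33.9 and 388 in nonclassical monocytes, and 48.9 and 420 in neutrophils. Cxcl9 had 11.8 CPM in LPS+RT and 440 in LPS in the C1q macrophages. These classes come from the same 2 libraries and are no replicates.

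Of the 18 type I interferon genes, 17 were in the table and 8 were measured in LPS+RT against LPS. Of these, 2 were lower and none higher, with a median of -0.87. Ifit2 had 13.4 CPM in LPS+RT, 74.3 in LPS, 5.43 in PBS+RT and 35.2 in PBS, and Rsad2 44.3, 133, 16.3 and 58.3 CPM. Isg15, a ubiquitin-like protein that interferons induce, had 90.5, 179, 39.3 and 126 CPM. Over all members, all 3 were lower in each irradiated library than in its unirradiated counterpart. Ifit2 and Rsad2 were among the leading genes of cluster 5, whose 29 members were all from LPS. With clusters 1 and 2 only, the log2 ratio of LPS over PBS was -0.93 for Ifit2 and -0.51 for Rsad2. The size of the part of cluster 5 in the difference between LPS+RT and LPS was not tested for these genes. In the PBS pair 3 of the 8 measured genes of the list were at least 2-fold lower, and none higher, with a median of -0.91.

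NF-kB cytokine genes were lower in LPS+RT than in LPS in 8 of the 14 measured of 20, and higher in none, with a median of -1.10. In cluster 1, 5 of 9 measured were lower, with a median of -1.36, and in cluster 2, 10 of 12, with a median of -1.67. In cluster 3, 3 of 11 were lower and 1 higher, with a median of -0.57. In cluster 4, 1 of 14 was lower and 1 higher, with a median of 0.03. Il6 had 45.6 CPM in LPS+RT, 155 in LPS, 52.9 in PBS+RT and 17.1 in PBS, but in PBS+RT 66.7% of the UMIs were from 1 cell. Ccl3 had 227 CPM in LPS+RT and 695 CPM in LPS, and Il1rn 125 CPM in LPS+RT and 313 CPM in LPS. Il1b was within 2-fold, at 1906 CPM in LPS+RT and 3085 in LPS. Acod1 had 116 CPM in LPS+RT and 560 in LPS, and Hmox1 111 CPM in LPS+RT and 317 in LPS. Irak3 had 65.7 CPM in LPS+RT and 203 in LPS. Inhba differed little, at 414 CPM in LPS+RT and 523 CPM in LPS, as did Gpnmb, at 245 CPM in LPS+RT and 193 CPM in LPS. Among the leading genes of cluster 4, Inhba and Gpnmb were thus within 2-fold, while Saa3 was lower by 2.30.

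Genes higher in LPS+RT than in LPS were fewer. Apoe, a lipid carrier of tissue macrophages, had 2387 CPM in LPS+RT, 827 in LPS, 2051 in PBS+RT and 1163 in PBS, with 26.5% of the LPS+RT UMIs in 1 cell. Cd209a had 128 CPM in LPS+RT, 32.1 in LPS, 275 in PBS+RT and 219 in PBS, and Ifitm6 332, 142, 408 and 576 CPM. For Cd209a and Ifitm6 the LPS library was the lowest of the 4. Fabp5, a carrier of fatty acids, had 722 CPM in LPS+RT and 316 CPM in LPS. Cd74 had 3187 CPM in LPS+RT and 559 in LPS within cluster 4, and 904 and 1994 CPM within cluster 1, so Cd74 went opposite ways in these clusters.

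The genes with the largest ratios higher in LPS+RT than in LPS included several that 1 cell carried. The cell with most UMIs of a gene held 97.7% of those of Ank3, 96.5% of those of Sftpd, 91.6% of those of Cbr2 and 91.7% of those of Lyz1 in LPS+RT. Sftpd, the gene of a surfactant protein, and Sftpc mark alveolar type 2 cells, and 2 members of LPS+RT held at least 20 Sftpc UMIs. Of 10 lung structural genes listed, 5 were measured and all 5 were higher in LPS+RT than in LPS. Scgb1a1, a club cell gene, had 221 CPM in LPS+RT, 54.6 in LPS, 71.9 in PBS+RT and 245 in PBS, and no cell held more than 13.2% of it in a library. Ube2c, a cell cycle gene, had 63.7 CPM in LPS+RT and 18.1 CPM in LPS, with 48.4% of the LPS+RT UMIs in 1 cell. These values do not describe the members as a whole.

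PBS+RT against PBS asks what irradiation did without endotoxin, and rests on 42 and 64 members. The libraries differed in make-up: cluster 1 held 6 members of PBS+RT and 47 of PBS, and cluster 2 held 22 and 5. Within these clusters the libraries were not compared, for want of members. The part of this make-up in the ratios below was not tested. Cd86 and 5 of 14 measured NF-kB factor genes were higher in PBS+RT, and 3 of 8 measured type I interferon genes were lower. Of 3762 genes measured, 538 (14.3%) were called, and 379 were at least 2-fold higher (10.1%) and 159 at least 2-fold lower (4.23%) in PBS+RT than in PBS. The median log2 ratio was 0.18, and with median-of-ratios scaling 49.6% of the calls were higher in place of 70.4%. The balance of higher and lower genes is thus not fixed by these data.

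Of 16 NF-kB factors and feedback genes, 14 were measured, 5 were higher and none lower, with a median of 0.68. Rel, a subunit of NF-kB, had 395 CPM in LPS+RT, 465 in LPS, 872 in PBS+RT and 336 in PBS. Nfkb1 had 571, 971, 780 and 305 CPM in the same order. Cd86 had 265, 564, 986 and 265 CPM, and was thus highest in PBS+RT. Of 14 NRF2 genes 9 were measured and 4 were higher, among them Txnrd1, a thioredoxin reductase gene, at 195 CPM in PBS+RT and 72.4 CPM in PBS. Vegfa, the gene of a vessel growth factor, had 121 CPM in PBS+RT and 21.1 CPM in PBS. Plac8 was 1104 CPM in PBS+RT and 2061 CPM in PBS, within 2-fold, and Fn1, the fibronectin gene, 1750 CPM in PBS+RT and 982 CPM in PBS.

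Mpp7, a scaffold protein gene, had 93.9 CPM in LPS+RT, 405 in LPS, 860 in PBS+RT and 298 in PBS. Nrg1, a growth factor gene, had 143, 466, 288 and 34.2 CPM in the same order. Over all members, both were higher in PBS+RT than in PBS and lower in LPS+RT than in LPS. Within cluster 3, Mpp7 had 32.1, 421, 725 and 154 CPM in the same order, and Nrg1 144, 49.2, 238 and 0 CPM. Nrg1 was thus higher in both irradiated libraries there. Taf4b had 250 CPM in PBS+RT and 17.1 CPM in PBS, with 54.9% of the PBS+RT UMIs in 1 cell. Retnla, a secreted gene of alternative activation, and Plat were each carried by 1 cell of PBS+RT. Mki67, a marker of dividing cells, had 79.1 CPM in LPS+RT, 141 in LPS, 263 in PBS+RT and 33.2 in PBS, and 60.3% of the PBS+RT UMIs were in 1 of 7 cells. Lower in PBS+RT were Ngp, Camp, Ltf, G0s2 and C7, of which 1 cell of PBS held 75.2% or more of the UMIs.

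X-rays are known to induce genes of the p53 response. Of 21 listed, 6 were measured in PBS+RT against PBS, 1 was at least 2-fold higher and none lower, with a median of 0.74, against 10.1% higher and a median of 0.18 among all measured genes. In LPS+RT against LPS 7 were measured and none was called, with a median of 0.05, against 6.92% called and a median of -0.12 among all. So few measured genes set neither share apart from that of all genes. Cdkn1a, the inhibitor of cell division p21, had 512 CPM in LPS+RT, 377 in LPS, 419 in PBS+RT and 276 in PBS. Its log2 ratio was 0.60 (0.37 to 0.84) in PBS+RT over PBS and 0.44 (0.31 to 0.57) in LPS+RT over LPS. Over all members the irradiated library was thus the higher in each pair. Within clusters 1, 3 and 4 Cdkn1a was also higher in LPS+RT than in LPS. Within cluster 2 it had 388 CPM in LPS+RT and 428 in LPS. Mdm2, the feedback inhibitor of p53, had 172 CPM in LPS+RT, 166 in LPS, 145 in PBS+RT and 74.4 in PBS. Ccng1 had 60.4, 49.7, 54.3 and 19.1 CPM in the same order. For both genes PBS was the lowest of the 4 libraries.

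**Figure D5:**
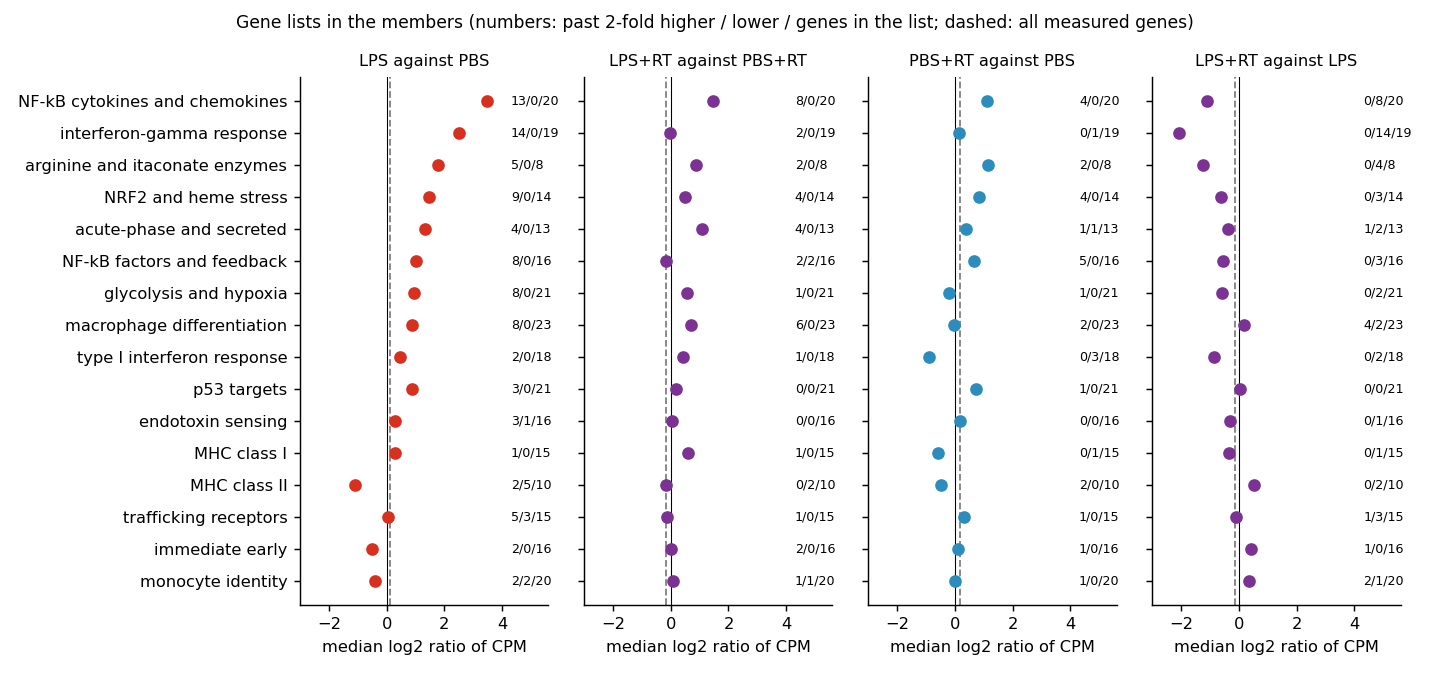
Median log2 ratio of CPM over the measured genes of 16 lists in the 4 comparisons; the dashed line is the median of all measured genes, and the numbers give the genes at least 2-fold higher, those at least 2-fold lower and the genes in the list. The interferon-gamma list lies at 2.52 in LPS against PBS and at -2.07 in LPS+RT against LPS, and the list of monocyte identity at -0.40 and 0.34.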

How the data were processed

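For each library the authors deposited a matrix of UMI counts, not normalized, whose header names Cell Ranger 7.0.1 as its source. The submitters' processing notes list mm10, Cell Ranger 7, Seurat 4.3.0 and R 4.2.2. Whether intron reads were counted is not given in the sources used here, and barcode sequences were not used, so barcodes shared between libraries were not counted. Barcodes were kept from 500 UMIs and 200 genes upward if mitochondrial genes gave no more than 10% of their UMIs. Members and gene lists were chosen with earlier results of these data known. UMIs were summed over the members of a library and scaled to CPM; intervals are exact Poisson, binomial (Clopper-Pearson) or conditional binomial, tested on simulated data. No test was possible with 1 library per group. Genes were named when among the 6 highest or 6 lowest of a comparison after adding 10 CPM, among 2 to 4 list members with the largest differences, or always; Gbp7 and Socs1 were named after their values were seen. Mitochondrial, ribosomal, hemoglobin, immunoglobulin and gate genes, genes at under 1/5 of their level in another gated class of at least 50 barcodes, and markers of other types, were left out of the first. Members were clustered (2000 variable genes, 20 components, 15 neighbors, Leiden resolution 0.5) without batch correction. Doublets were scored with Scrublet and not removed in the main analysis; 1.46 to 2.78% of barcodes and 3 of the 413 members were called, and the LPS library, whose own threshold failed or marked under 0.5% of barcodes, took the median threshold of the others. The tools were scanpy 1.11.5, leidenalg 0.10.2, scipy 1.17.1, pandas 2.3.3, numpy 2.4.6 and Python 3.11.15. Gene positions are from GENCODE M21. Alternatives were other limits of the gate, scaling, depth and filters, and 2 added after seeing the data.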

Additional observations from a re-analysis of the deposited data

Results flagged for a closer look

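In 4 genes the contrast between an irradiated library and its unirradiated counterpart ran in opposite directions in saline and LPS lungs; the difference between the contrasts was not tested, since each group is 1 library. Mpp7 had a log2 ratio of -2.11 in LPS+RT over LPS and 1.53 in PBS+RT over PBS. Nrg1 had -1.71 in LPS+RT over LPS and 3.07 in PBS+RT over PBS. The libraries differed in their make-up of clusters, and its part in these contrasts was not tested. Hist1h1b, a histone gene of dividing cells, had -1.58 in LPS+RT over LPS and 2.16 in PBS+RT over PBS, and 83.2% of its UMIs in PBS+RT were in 1 cell. Scgb1a1, a gene of club cells, had 2.01 in LPS+RT over LPS and -1.77 in PBS+RT over PBS. Over all measured genes, 24 were at least 2-fold higher in PBS+RT than in PBS and at least 2-fold lower in LPS+RT than in LPS, and 18 the other way round. The 24 are 6.33% of the 379 genes higher in PBS+RT, near the 5.1% of all measured genes lower in LPS+RT than in LPS. The 18 are 11.3% of the 159 genes lower in PBS+RT, against 1.82% of all measured genes higher in LPS+RT than in LPS. Among the 18 were the fibroblast genes Col1a1 and Col3a1, the alveolar type 2 gene Sftpc, and Scgb1a1. Most Sftpc UMIs of LPS+RT were in 1 cell, as given above. The part of transcripts of other cell types in the 18 was not tested.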

How the results depend on the processing

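No paired analysis was possible because each group is 1 library. The share of members was 1.28 higher in LPS than in PBS on the log2 scale with Ccr2, F13a1 and Vcan alone, 2.45 without the limit on Nos2 and Arg1, 1.22 after thinning to 3000 UMIs and 0.78 among barcodes with Ptprc. In LPS+RT over LPS it was -1.87, -0.80 and -0.69 under the last 3 of these. Genes at least 2-fold apart, in the order LPS over PBS, LPS+RT over PBS+RT, PBS+RT over PBS and LPS+RT over LPS, numbered 729, 429, 538 and 251. With a filter of 20 CPM and 12 UMIs they numbered 1269, 975, 1138 and 551, at 1.5-fold 1497, 1279, 1474 and 788, at 3-fold 349, 149, 178 and 88, and after thinning PBS+RT over PBS had 336. With clusters 1 and 2 only, an alternative chosen after seeing the data, LPS over PBS turned to 0.52 for the median of MHC class II, 0.52 for H2-Aa, 0.37 for Cd74, -0.22 for Mmp14, -0.79 for Gpnmb, -0.51 for Rsad2 and -0.93 for Ifit2, and LPS+RT over PBS+RT to -0.32 for Inhba, -0.00033 for Mmp14, -0.74 for Il1a and -2.74 for Acod1, the last resting on 1 UMI in LPS+RT. For Inhba, at 4 UMIs in LPS+RT and 0 in PBS+RT, the floor of 3 UMIs gives the sign, and the counts did not turn. Thinning turned LPS over PBS to 2.09 for the median of MHC class II, 2.54 for H2-Aa and 1.87 for Cd74. Genes carried by 1 cell turned most often. S100a8 in LPS over PBS turned to 1.85 with Ccr2, F13a1 and Vcan alone, 5.10 without members with neutrophil genes, 2.65 after thinning and 3.08 without the top cell, also chosen after seeing the data. Without the top cell Ngp turned to 0.042 and Camp to 0.54, and after thinning Camp to 0.58 and Ltf to 0.26. In PBS+RT over PBS, S100a8 turned to 1.38 with the 3 genes alone, 1.12 without neutrophil genes and 0.92 after thinning, Camp to 0.76 and 2.17 with the 3 genes alone and after thinning, and the median of neutrophil markers to 0.24 and 0.33. In LPS+RT over LPS, Ank3 turned to -0.42 after thinning, and Sftpd to -1.31 with the 3 genes alone, -1.48 after thinning and -0.36 without its top cell. The causes were not tested. No other list median or named gene past 2-fold turned under an alternative in which it was compared. Genes left with no more than 3 UMIs in either library, and lists with fewer than 3 measured genes, were not compared. With clusters 1 and 2 only, Saa3 and Slc7a2 in LPS+RT over PBS+RT were such genes. In LPS+RT, Saa3 had 3 UMIs in cluster 1 and 0 in cluster 2, and Slc7a2 had 1 and 2. Depth limits genes under about 50 CPM.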

Other observations

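Not all genes of the coagulation list were measured: of 13 listed, 6 passed the filter in LPS against PBS, 2 were at least 2-fold higher and 1 lower. F10, the gene of coagulation factor X, had 210 CPM in LPS+RT, 297 in LPS, 92.2 in PBS+RT and 81.5 in PBS, so both LPS libraries were above both saline libraries. Thbs1, the thrombospondin gene, had 944, 571, 1961 and 980 CPM in the same order. Ier3, an early response gene, had 694 CPM in LPS+RT, 842 in LPS, 240 in PBS+RT and 72.4 in PBS, and Bcl2a1b, of the survival proteins A1, 274, 595, 50.2 and 95.5 CPM. The Bcl2a1b value is uncertain, since near-identical copies share its reads. Slc2a1, the glucose carrier gene, had 59.0, 142, 32.6 and 54.3 CPM, and was highest in LPS.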
